A study of Mus musculus with 4 samples.

Results

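The 32 genes described here encode the enzymes and transporters of glycolysis, the proteins that sense oxygen, and further genes known to respond to low oxygen, in Langerhans cells, the dendritic cells of the epidermis. They were chosen by name. A gene was measured where the platform annotation gave it at least 1 probe set of its own, and the probe set of greatest mean signal over the 4 arrays stood for it. This held for 28 of the 32 genes, among 12393 genes with such a probe set. Hk3, Gpi1, Gapdh and Eno1 had none apart from array controls. The cells came from ear epidermis of mice deficient in AhR exon 2 and of wild-type C57BL/6 mice, with 2 arrays for each genotype. Neither genotype had been treated. Cells of both spent 16 hours in culture and were then sorted by flow cytometry, as live cells with surface MHC class II, to more than 95% purity. The age, sex and number of mice behind an array, and the strain background of the deficient mice, were not stated in the labels used. Those labels call the arrays of a genotype biological replicates, and p-values below measure the spread between these arrays.

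Glycolysis turns glucose into pyruvate, and lactate dehydrogenase turns pyruvate into lactate. Activated dendritic cells are known for a raised use of this route. The transcription factor HIF-1 switches on many genes of the route when oxygen is scarce. Its oxygen-sensitive subunit, encoded by Hif1a, is marked by prolyl hydroxylases (Egln1, Egln3) and then removed through the von Hippel-Lindau protein (Vhl) when oxygen is present. HIF-1 binds DNA together with Arnt, which is also the partner of AhR. Much of this control acts on the protein, while the arrays measured transcripts.

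The genes fell into patterns that differed from each other. Hif1a and Ddit4 had lower signal in both AhR-deficient arrays, with wild-type arrays close to each other. Most glycolytic enzymes, and Bnip3, were instead highest in wild-type replicate 1, and their difference between the wild-type arrays was greater than their difference between genotypes. No member passed the threshold for the genotypes in limma (adjusted p under 0.05 over all 22626 probe sets, 0 of 28 higher and 0 of 28 lower), where 0% of all probe sets were called higher and 0.0177% lower. Without adjustment, 3 members lay below a p of 0.05 with lower signal and 0 with higher, beside 2.64% and 3.36% of all probe sets. Those 3 were Hif1a, Ddit4 and Pfkp.

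**Figure D1:**
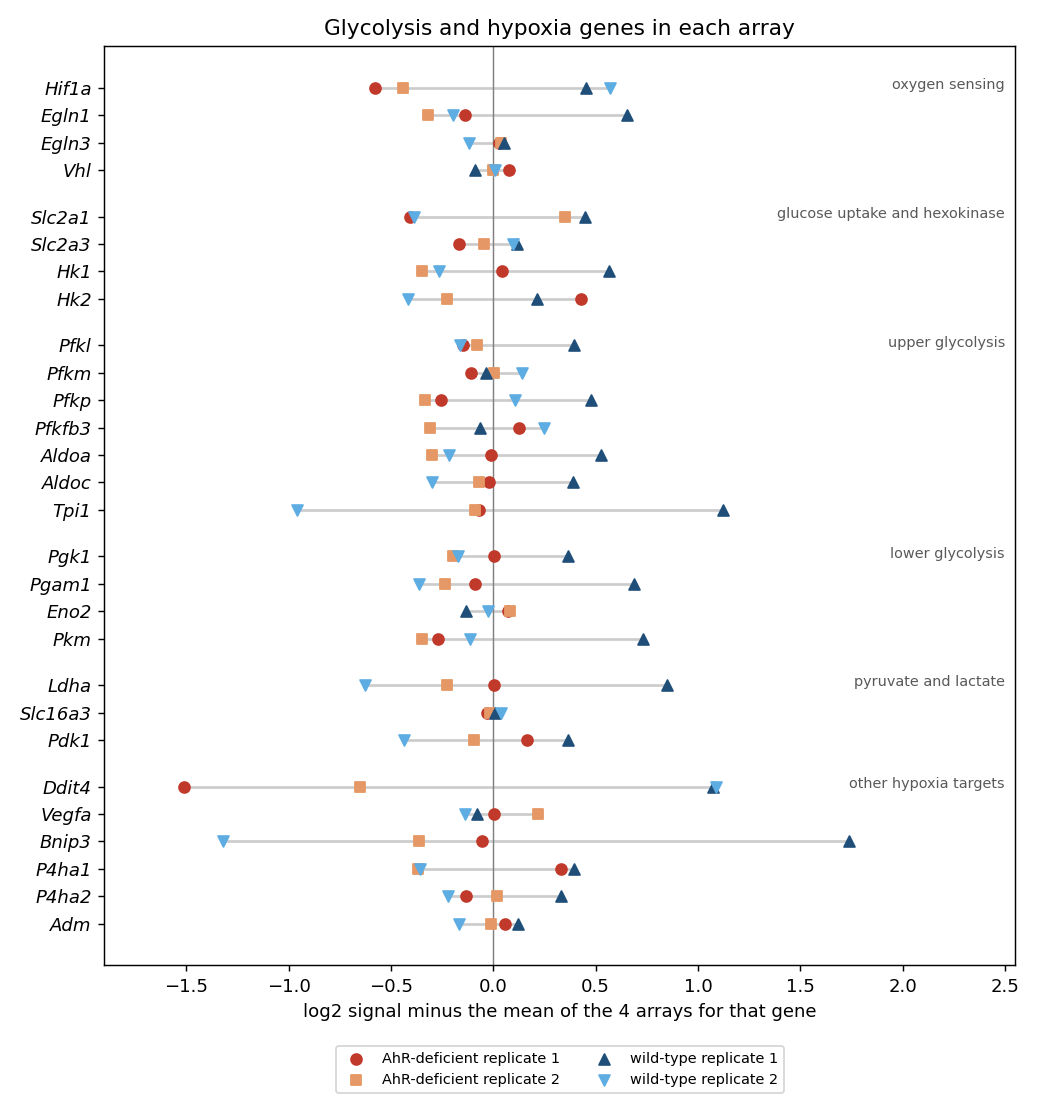
Log2 signal of each measured member in each array (x axis) minus the mean of the 4 arrays for that gene, by role (y axis). Circles and squares are AhR-deficient arrays and triangles wild-type arrays. Hif1a and Ddit4 separate by genotype, while wild-type replicate 1 is highest for 19 of the 28 genes and stands far to the right for Bnip3 and Tpi1.

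Among the oxygen-sensing genes, Hif1a (probe set 1427418_a_at) had a log2 signal of 9.00 and 9.14 in the deficient arrays and 10.04 and 10.15 in the wild-type ones. The groups did not overlap, and each lay within 0.14 of its own replicate. The log2 difference, AhR-deficient minus wild-type, was -1.02 (SE 0.10, n = 2 arrays per genotype), or 2.03-fold higher in wild-type cells, and did not pass (limma, adjusted p = 0.256). Leaving out any array in turn kept it between -1.09 and -0.95. A second probe set, 1416035_at, had 6.60 and 6.98 against 7.41 and 7.48, again without overlap. The remaining 2 probe sets of Hif1a differed by 0.00 and -0.01, with overlapping arrays at lower signal (5.73 to 5.89 and 4.39 to 4.56), so the probe sets of this gene disagreed. With the mean of its 4 probe sets the difference was -0.42.

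Egln1, the main hydroxylase that marks the HIF-1 subunit, gave 7.40 and 7.22 in the deficient arrays and 8.19 and 7.34 in the wild-type ones. In this probe set only wild-type replicate 1 stood apart, and the difference was -0.46 (SE 0.31), or -0.03 without that array. The other Egln1 probe set gave 6.01 and 5.72 against 6.06 and 5.88, and there wild-type replicate 1 lay close to AhR-deficient replicate 1. Egln3, a hydroxylase that is itself a HIF target, gave 4.66 and 4.67 against 4.68 and 4.51. Vhl lay between 4.90 and 5.07. In both of these probe sets the genotypes overlapped. A dimmer Egln3 probe set gave 4.32 and 4.51 against 4.59 and 4.27 and overlapped as well.

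Ddit4, also called Redd1, encodes an inhibitor of mTORC1 signalling that hypoxia, energy stress and glucocorticoids induce. Its log2 signal was 6.69 and 7.54 in the deficient arrays and 9.27 and 9.28 in the wild-type ones. Both wild-type arrays lay well above both deficient arrays, while the deficient arrays differed from each other by 0.86. The difference of -2.16 (SE 0.30) corresponded to 4.47-fold higher signal in wild-type cells and did not pass (limma, adjusted p = 0.436). Dropping deficient replicate 1 gave -1.73 and dropping deficient replicate 2 gave -2.59, with values between -2.17 and -2.15 when a wild-type array was dropped. Ddit4 has 1 probe set, so no second set of probes bears on this value.

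The promoters of Hif1a and Ddit4 are shown because, of the members that separated the genotypes, these had the largest differences. The sequences are the 250 bases before the transcription start, 5′ to 3′ on the gene's strand, from RefSeq on GRCm38.p6. Capitals mark ACGTG, the core that HIF-1 recognises, and GCGTG, the core that both HIF-1 and AhR with Arnt can bind. Both strands were searched, so CACGT and CACGC in capitals are the same cores on the opposite strand, and a palindromic CACGTG counts as ACGTG on both strands.
Hif1a (chr12:73907617-73907866, plus strand): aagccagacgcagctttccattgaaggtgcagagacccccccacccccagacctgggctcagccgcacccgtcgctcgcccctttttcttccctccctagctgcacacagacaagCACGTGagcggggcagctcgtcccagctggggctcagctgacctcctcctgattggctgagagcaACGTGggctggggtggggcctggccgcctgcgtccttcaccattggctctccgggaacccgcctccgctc
Ddit4 (chr10:59951771-59952020, minus strand): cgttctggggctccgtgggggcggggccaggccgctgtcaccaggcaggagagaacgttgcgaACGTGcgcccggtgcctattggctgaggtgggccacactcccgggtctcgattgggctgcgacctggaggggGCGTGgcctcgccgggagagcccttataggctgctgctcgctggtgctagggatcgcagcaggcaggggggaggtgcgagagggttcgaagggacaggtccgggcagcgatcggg
Hif1a held 3 matches of ACGTG and 0 of GCGTG. Ddit4 held 1 of each. Such a match is a string of letters in the window and was not measured as a binding site.

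Glucose enters the cell through the transporters Slc2a1 and Slc2a3 and is trapped by hexokinases. Slc2a1 gave 9.19 and 9.94 in the deficient arrays and 10.04 and 9.21 in the wild-type ones. AhR-deficient replicate 2 and wild-type replicate 1 were high and the other two arrays low, across the genotypes. Its other probe sets repeated that order, with 7.77 and 8.46 against 8.59 and 7.93, and 6.99 and 7.36 against 7.28 and 6.90. The genotype difference was -0.06 (SE 0.39). Slc2a3 gave 5.33 and 5.45 against 5.61 and 5.59, a difference of -0.21 (SE 0.08) without overlap. The other 3 probe sets of Slc2a3 overlapped and differed by -0.04 to 0.12.

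Hk2, the inducible hexokinase, gave 8.42 and 7.77 in the deficient arrays and 8.21 and 7.58 in the wild-type ones. Replicate 1 was higher than replicate 2 in both genotypes, by 0.65 and 0.63, and the genotype difference was 0.20 (SE 0.32). Hk1, the widely expressed form, gave 5.80 and 5.41 against 6.32 and 5.49, with wild-type replicate 1 highest. Its other probe set had the opposite order of genotypes, at 5.19 and 5.42 against 5.01 and 4.98 (0.31, SE 0.11).

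In the upper part of glycolysis, phosphofructokinase commits the sugar to breakdown and aldolase and triose phosphate isomerase split and interconvert the products. All 7 measured members had a genotype difference below 0, from -0.59 to -0.09, beside 47.5% of all probe sets. Their median was -0.18, and 0.05 without wild-type replicate 1. Pfkp, the platelet-type phosphofructokinase, gave 7.24 and 7.17 in the deficient arrays and 7.98 and 7.61 in the wild-type ones. The groups did not overlap, and the difference was -0.59 (SE 0.15), which did not pass (limma, adjusted p = 0.706). Its value was -0.40 when wild-type replicate 1 was dropped and -0.77 when replicate 2 was. A dimmer Pfkp probe set differed by 0.08, with values from 4.55 to 4.69, and the mean of both gave -0.25.

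Pfkl, the liver-type enzyme, gave 6.63 and 6.70 against 7.17 and 6.61, so that wild-type replicate 1 alone stood apart. Pfkm, the muscle-type enzyme, gave 6.16 and 6.27 against 6.23 and 6.40. Pfkfb3, which makes the activator fructose 2,6-bisphosphate, gave 9.44 and 9.01 against 9.25 and 9.56. Unlike most members it was higher in wild-type replicate 2 than in replicate 1, by 0.31. Aldoa gave 10.20 and 9.91 against 10.73 and 9.99, and Aldoc gave 6.01 and 5.96 against 6.42 and 5.73. For both aldolases wild-type replicate 1 was highest, as it was in all 4 probe sets of Aldoa.

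Tpi1, triose phosphate isomerase, gave 9.38 and 9.36 in the deficient arrays and 10.58 and 8.49 in the wild-type ones. The deficient arrays agreed within 0.02, while the wild-type arrays lay 2.08 apart, on either side of them. Wild-type replicate 1 was thus 4.23-fold above wild-type replicate 2, against a genotype difference of -0.16 (SE 0.72). That difference was 0.88 when wild-type replicate 1 was dropped and -1.20 when replicate 2 was. The other 2 probe sets had the same order of arrays, with the wild-type arrays 2.40 and 2.93 apart.

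In the lower part of glycolysis, Pgk1, phosphoglycerate kinase, gave 12.27 and 12.07 in the deficient arrays and 12.63 and 12.09 in the wild-type ones. Its genotype difference was -0.20 (SE 0.21). The other 2 Pgk1 probe sets did separate the genotypes, with 11.26 and 11.38 against 12.13 and 11.69 (-0.59, SE 0.17) and 9.04 and 9.24 against 10.06 and 9.27 (-0.53, SE 0.29). Neither passed. Pgam1, phosphoglycerate mutase, gave 7.69 and 7.55 against 8.47 and 7.42, with the wild-type arrays 1.05 apart and the deficient arrays between them.

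Pkm, pyruvate kinase, gave 7.25 and 7.18 in the deficient arrays and 8.26 and 7.41 in the wild-type ones. The groups did not overlap, but the margin to wild-type replicate 2 was small. The difference of -0.62 (SE 0.30) did not pass (limma, adjusted p = 0.867) and was -0.20 without wild-type replicate 1. Eno2, the neuronal enolase, gave 4.63 and 4.64 against 4.43 and 4.53, higher in both deficient arrays (0.16, SE 0.08). Its mean lay below the 25th percentile of probe set means.

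Gapdh lay outside the rule, as its probe sets are array controls or are shared with pseudogenes. The probe set shared by 5 symbols gave 12.34 and 11.89 in the deficient arrays and 12.67 and 11.93 in the wild-type ones. The 3′ control probe set gave 12.00 and 11.69 against 12.52 and 11.60. In both, wild-type replicate 1 was the highest array.

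Pyruvate leaves glycolysis as lactate or enters mitochondria. Ldha, lactate dehydrogenase A, gave 9.28 and 9.05 in the deficient arrays and 10.13 and 8.65 in the wild-type ones. The wild-type arrays lay 1.48 apart, or 2.79-fold, on either side of the deficient arrays, and the genotype difference was -0.22 (SE 0.52). Slc16a3, the lactate exporter, gave 5.03 and 5.04 against 5.07 and 5.10, and its lack of overlap between genotypes rests on a difference of -0.05 (SE 0.07).

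Pdk1, the kinase that shuts pyruvate dehydrogenase, gave 7.28 and 7.02 against 7.48 and 6.68, a wild-type gap of 0.80. Its other probe set, 1423747_a_at, gave 4.34 and 4.12 in the deficient arrays and 7.00 and 3.32 in the wild-type ones. There, wild-type replicate 1 stood 3.68 above wild-type replicate 2, and the other three arrays lay below their 25th percentiles of 4.54 to 4.56.

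**Figure D2:**
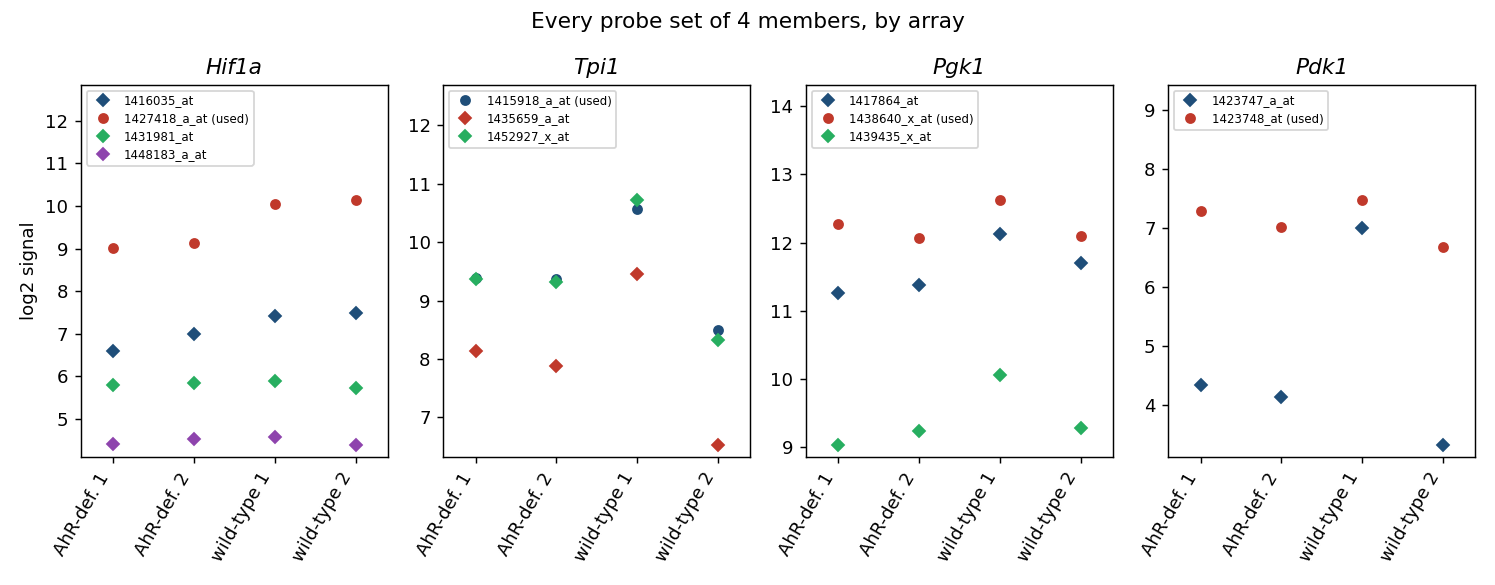
Log2 signal (y axis) of every probe set of Hif1a, Tpi1, Pgk1 and Pdk1 in each array (x axis), with a circle for the probe set used and diamonds for the others. In Tpi1 and in Pdk1 probe set 1423747_a_at, wild-type replicate 1 stands far above wild-type replicate 2, whereas the 2 brighter probe sets of Hif1a are high in both wild-type arrays.

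The remaining hypoxia-responsive genes went different ways. Bnip3, a mitochondrial protein that promotes mitophagy, gave 9.06 and 8.75 in the deficient arrays and 10.85 and 7.80 in the wild-type ones. The wild-type arrays lay 3.06 apart, an 8.33-fold gap, with both deficient arrays between them. The genotype difference of -0.42 (SE 1.05) became 1.11 when wild-type replicate 1 was dropped and -1.95 when replicate 2 was. Vegfa, the endothelial growth factor, gave 6.38 and 6.60 against 6.30 and 6.24, without overlap and higher in deficient cells (0.22, SE 0.11). Its other probe set gave 5.98 and 6.61 against 6.59 and 5.83, the crosswise order seen for Slc2a1, and overlapped.

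P4ha1 and P4ha2 are collagen prolyl hydroxylase subunits. P4ha1 gave 6.14 and 5.44 in the deficient arrays and 6.20 and 5.45 in the wild-type ones, higher in replicate 1 of both genotypes, as Hk2 was. P4ha2 gave 4.29 and 4.44 against 4.75 and 4.20, and Adm, the vasodilator adrenomedullin, gave 4.38 and 4.31 against 4.44 and 4.16. Both had means below the 25th percentile of probe set means, where differences are compressed.

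Counted without a test, 6 of the 28 members (21.4%) had both deficient arrays below both wild-type arrays, beside 16.2% of all probe sets. They were Hif1a, Slc2a3, Pfkp, Pkm, Slc16a3 and Ddit4. Another 2 (7.14%), Eno2 and Vegfa, were higher without overlap, beside 19% of all probe sets. The median difference over the members was -0.17, while that over all probe sets was 0.01. Of the members, 21 were below 0 and 7 above. This lean rested on wild-type replicate 1: without it the median was 0.11, and 12 members changed the sign of their difference. In those arrays 13 members (46.4%) were higher without overlap, beside 35.1% of all probe sets. Without wild-type replicate 2 the median was -0.45, and 22 members (78.6%) were lower without overlap, beside 34.3%.

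**Figure D3:**
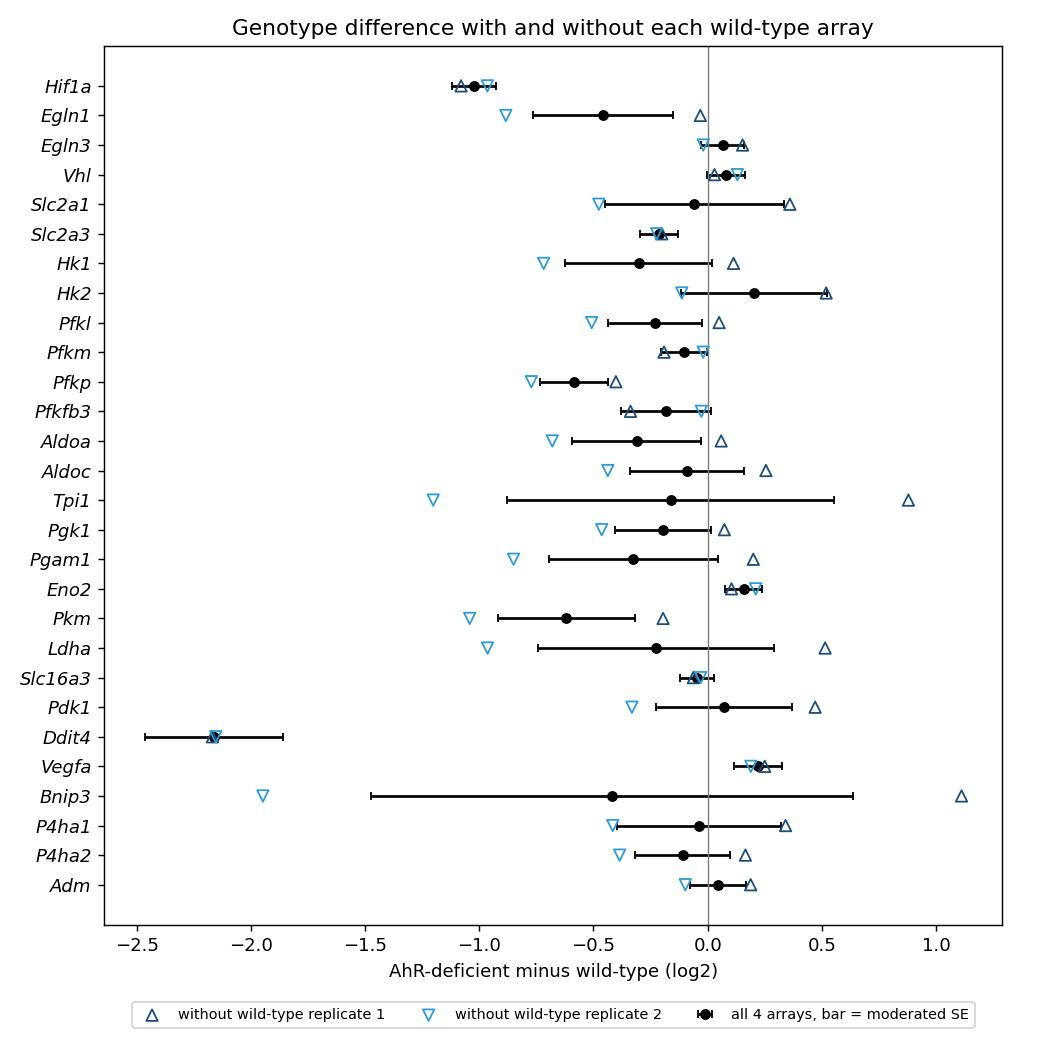
Genotype difference of each member in log2 units (x axis), AhR-deficient minus wild-type, for all 4 arrays (black, bar = moderated SE) and with either wild-type array left out (open triangles). Hif1a and Ddit4 keep their place, while Bnip3 moves from 1.11 to -1.95 and Tpi1 from 0.88 to -1.20 as wild-type replicate 1 or 2 is left out.

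The difference between the wild-type arrays was then described on its own, with 1 array on each side and no test. Wild-type replicate 1 was at least 2-fold above wild-type replicate 2 for 4 members (14.3%), which were Bnip3, Tpi1, Ldha and Pgam1, beside 0.743% of all probe sets. No member was 2-fold the other way, beside 0.398%. The median of replicate 1 minus replicate 2 was 0.55 over the members and 0.01 over all probe sets. Replicate 1 was the higher of the pair for 21 members, beside 51.9% of all probe sets. For 16 members the gap exceeded 0.51, the value that 2.5% of all probe sets exceed. It exceeded the absolute genotype difference in absolute size for 21 members (75%), beside 59.5% of all probe sets.

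By order of the arrays, wild-type replicate 1 was the highest of the 4 for 19 members, beside 27.3% of all probe sets. Wild-type replicate 2 was the lowest for 12, beside 24.9%. Both AhR-deficient arrays lay between a high wild-type replicate 1 and a low wild-type replicate 2 for 10 members, beside 8.41%. These were Egln3, Pfkl, Aldoc, Tpi1, Pgam1, Ldha, Pdk1, Bnip3, P4ha2 and Adm. The mean log2 signal over the 28 members was 7.15 and 7.09 in the deficient arrays and 7.67 and 7.08 in the wild-type ones, so that wild-type replicate 1 alone stood apart. The members do not vary independently of each other within an array, and they are not replicates.

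The AhR-deficient arrays differed less. No member reached 2-fold between them, beside 0.53% of all probe sets, and the median absolute difference was 0.15 over the members, against 0.55 between the wild-type arrays. Over all probe sets these medians were 0.12 and 0.11. Ddit4 (0.86 higher in replicate 2), Slc2a1 (0.76 higher in replicate 2), P4ha1 (0.70 higher in replicate 1) and Hk2 (0.65 higher in replicate 1) differed most.

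**Figure D4:**
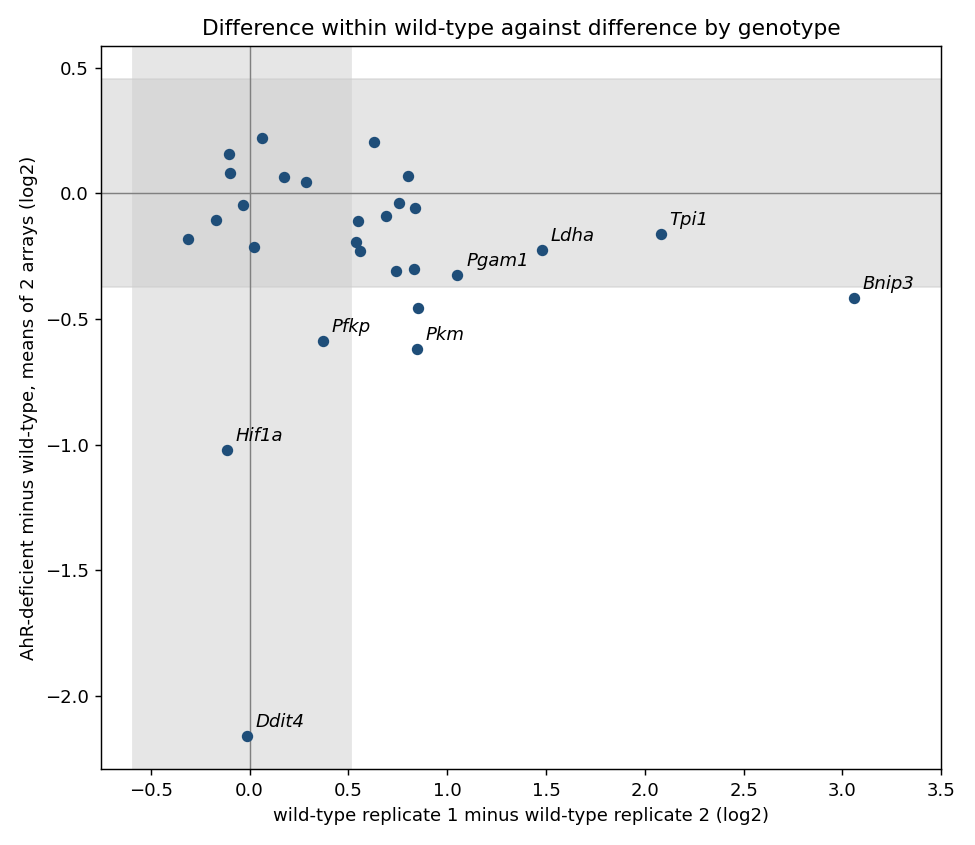
Difference between the wild-type arrays (x axis, log2) against the genotype difference (y axis, log2) for each measured member. Grey bands leave out the lowest and the highest 2.5% of all probe sets. Ddit4 and Hif1a lie low with almost no wild-type gap, while Bnip3, Tpi1, Ldha and Pgam1 lie far to the right at genotype differences of -0.42 to -0.16.

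The promoters of the 4 members with a 2-fold gap between the wild-type arrays are shown to set them beside those of Hif1a and Ddit4, with the same window, build and capitals. For Ldha, which has 2 listed starts, the sequence belongs to the start listed first.
Bnip3 (chr7:138909507-138909756, minus strand): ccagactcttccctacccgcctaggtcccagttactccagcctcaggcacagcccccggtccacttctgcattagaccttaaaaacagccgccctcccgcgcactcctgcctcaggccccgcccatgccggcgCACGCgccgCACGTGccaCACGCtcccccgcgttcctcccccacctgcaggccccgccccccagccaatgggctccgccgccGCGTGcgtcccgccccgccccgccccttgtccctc
Tpi1 (chr6:124814159-124814408, minus strand): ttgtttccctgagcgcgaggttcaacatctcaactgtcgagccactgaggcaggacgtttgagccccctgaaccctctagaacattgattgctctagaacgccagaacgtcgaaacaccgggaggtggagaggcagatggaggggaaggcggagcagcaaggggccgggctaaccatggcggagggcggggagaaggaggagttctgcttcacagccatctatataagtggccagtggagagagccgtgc
Ldha (chr7:46845554-46845803, plus strand): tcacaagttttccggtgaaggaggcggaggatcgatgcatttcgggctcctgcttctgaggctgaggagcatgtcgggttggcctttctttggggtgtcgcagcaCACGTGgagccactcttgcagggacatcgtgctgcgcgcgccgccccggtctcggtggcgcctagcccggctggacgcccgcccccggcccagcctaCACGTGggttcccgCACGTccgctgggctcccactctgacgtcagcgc
Pgam1 (chr19:41911621-41911870, plus strand): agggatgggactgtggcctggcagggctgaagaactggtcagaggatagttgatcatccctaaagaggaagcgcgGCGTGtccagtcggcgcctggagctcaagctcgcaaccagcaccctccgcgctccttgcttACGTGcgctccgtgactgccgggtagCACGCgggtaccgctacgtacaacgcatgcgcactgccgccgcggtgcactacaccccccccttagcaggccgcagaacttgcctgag
Ldha held 5 matches of ACGTG on the 2 strands, Bnip3 2 and Pgam1 1, while Tpi1 held none of either core. GCGTG was found 3 times for Bnip3 and 2 times for Pgam1. The cores were thus present in windows of genes of both patterns and absent from that of Tpi1. Of the other members without overlap between genotypes, Slc16a3 held 2 matches of ACGTG and Pfkp 3 of GCGTG. Pkm, Vegfa and Eno2 held none of either core in the window of the start listed first. Of the 31 members in the RefSeq table, 16 (51.6%) held ACGTG, beside 19.9% of 9888 genes on the array and 16.6% of all 27025 genes. For GCGTG the shares were 45.2%, 40.6% and 28.2%. Many of these genes are textbook HIF targets and were listed for that, so the share describes the list. Slc2a3 was not in the table.

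Several measures of the arrays are given beside these values, and their part in them was not tested. Not all of them set wild-type replicate 1 apart. The 3′ minus 5′ log2 signal of the Actb control was 2.34 and 2.61 in the deficient arrays and 3.16 and 2.65 in the wild-type ones. That of Gapdh was 2.24 and 2.19 against 2.60 and 1.97. Wild-type replicate 1 had the highest value of both. Langerin (Cd207), the defining marker of Langerhans cells, was at 11.21 and 11.71 against 11.00 and 12.06, lowest in wild-type replicate 1. The 7 Langerhans cell markers averaged 10.34 and 10.10 in the deficient arrays and 9.61 and 9.84 in the wild-type ones, all with means above the 25th percentile of probe set means. Of them 4, Cd74, H2-Aa, H2-Ab1 and Itgax, were higher in the deficient arrays without overlap and 0 lower. The shares of all probe sets were 19% and 16.2%. Keratinocyte markers averaged 5.73 and 5.12 in the deficient and 4.91 and 5.06 in the wild-type ones, highest in AhR-deficient replicate 1. Without overlap 5 of 11 were higher and 0 lower, beside the same 19% and 16.2%. T cell markers averaged 4.79 and 4.74 against 5.38 and 5.20, with 4 of 7 lower and 0 higher, beside 16.2% and 19%. Of these, 3 keratinocyte and 2 T cell markers had means below that 25th percentile. In sorted cells measured in bulk, fewer cells of a type and less RNA per cell cannot be told apart.

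Genes around the pathway were read from lists of their own. Of 10 measured partners of HIF and oxygen sensing, 0 passed over all probe sets. Without overlap, 2 were higher and 2 lower (20% each), beside 19% and 16.2% of all probe sets. Cited2, which competes with HIF-1 for the coactivators CBP and p300, was higher at 9.64 and 9.81 against 9.38 and 9.11 (0.48, SE 0.13, limma adjusted p = 0.710). Cul2, a scaffold of the Vhl ligase, differed by 0.31 (SE 0.14), Egln2 by -0.20 (SE 0.11) and Arnt2 by -0.16 (SE 0.10). In this list 1 gene, picked out after its values were seen, had a 2-fold gap between the wild-type arrays. It was Elob, elongin B of the Vhl ligase, at 7.41 and 8.62 against 9.17 and 7.80, and its deficient arrays lay 2-fold apart as well. Arnt, the shared partner of HIF-1 and AhR, lay between 4.37 and 4.62 and differed by 0.00 (SE 0.11). Its mean lay below the 25th percentile of probe set means, where differences are compressed. Ahr itself was at 8.55 and 8.60 against 7.61 and 8.23. No probe set is placed in the deleted exon by the annotation, so this does not check the genotype. Ahrr, the AhR repressor and a known AhR target, fell from 8.26 and 8.38 to 5.32 and 5.09 (limma, adjusted p = 0.0403). That call was lost when any 1 array was left out, with 16 added on the linear scale, and with a replicate block, each of which left 0 lower probe sets.

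Of 29 other HIF-responsive genes measured, 0 passed, and their median difference was -0.04. Without overlap, 4 were higher and 4 lower (13.8% each), beside 19% and 16.2% of all probe sets. Ndrg1, a stress-responsive gene, gave 10.11 and 9.68 against 10.67 and 10.43 (-0.66, SE 0.18). Bhlhe40, a transcriptional repressor, differed by -0.28 (SE 0.09). Hmox1, heme oxygenase, was higher at 6.66 and 6.15 against 5.87 and 5.91 (0.51, SE 0.19) and did not pass. Igfbp3 gave 4.08 and 3.42 against 3.25 and 3.41 (0.42, SE 0.24), which did not pass either. Its difference was 0.09 without AhR-deficient replicate 1, and each value lay below the 25th percentile of its array, where differences are compressed. The members' gap between wild-type arrays was shared by only some of this list. Its median of replicate 1 minus replicate 2 was 0.03, and 3 genes, picked out after their values were seen, were at least 2-fold higher in replicate 1. Mif, a cytokine, gave 6.88 and 7.11 in the deficient arrays and 9.55 and 6.10 in the wild-type ones. Higd1a, a mitochondrial hypoxia-inducible protein, gave 6.36 and 7.54 against 9.07 and 6.94, and Fam162a gave 7.30 and 7.44 against 8.26 and 7.12.

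Of 20 genes of pyruvate, lactate and mitochondrial entry, 1 fell and 0 rose. Without overlap, 4 were lower and 3 higher (20% and 15%), beside 16.2% and 19% of all probe sets. The gene that fell was Gpd2, mitochondrial glycerol-3-phosphate dehydrogenase, which draws electrons from a side product of glycolysis. Its signal was 8.15 and 8.02 in the deficient arrays and 10.72 and 10.69 in the wild-type ones, and it fell by 2.62 (SE 0.09, limma adjusted p = 0.0403). This call was lost in the same settings as that of Ahrr. When any 1 array was left out, the difference of Gpd2 lay between -2.68 and -2.56. The wild-type arrays thus agreed within 0.03 for Gpd2 while they lay 2.08 apart for Tpi1, which acts beside it on the same triose. Gpd1, its cytosolic partner, was at 6.40 and 6.27 against 6.00 and 6.05 and did not pass. In this list 0 genes had a 2-fold gap between the wild-type arrays.

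Of 23 genes of the pentose phosphate, glycogen and other sugar routes, 0 passed. Without overlap, 2 were higher and 4 lower (8.7% and 17.4%), beside 19% and 16.2% of all probe sets. Tkt, transketolase of the pentose phosphate route, gave 10.18 and 9.73 against 9.06 and 9.39 (0.73, SE 0.20), and Eno3, the muscle enolase, gave 8.13 and 7.63 against 7.23 and 7.27 (0.63, SE 0.19). Pgd, an enzyme of the same route as Tkt, differed by -0.38 (SE 0.19) and Gapdhs, the sperm form of Gapdh, by -0.22 (SE 0.10). No gene of this list had a 2-fold gap between the wild-type arrays either.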

How the data were processed

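The deposited values are log2 expression per probe set from Affymetrix MOE430A arrays; per the submitters' processing notes they were made by the authors with affy and RMA, which corrects background, quantile-normalises and summarises probes. Versions, the annotation then used and the probe sequences are not given in the sources used here. RMA gives no detection call and compresses dim signals. The medians of the 4 arrays ranged from 5.60 to 5.63, and no further scaling was applied. All arrays held different values.

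After 64 control probe sets were removed from 22690, the other 22626 were fitted with limma 3.58.1 in R 4.3.3 (lmFit, eBayes, two-sided, no replicate block, residual degrees of freedom 2, prior 2.27), with Benjamini-Hochberg adjustment over all of them at 0.05. SE is the moderated standard error. A single symbol was annotated for 20380 probe sets, more than 1 for 691, and 1555 had no symbol. Every measured member is named, with the members described at most length being those with an unadjusted p under 0.05, a genotype difference of at least 0.5, or a gap of at least 1 between replicates. From each related list, genes past the threshold are named or, where none passed, up to 4 non-overlapping genes of smallest p. Gpd1 was named outside this rule, as the partner of Gpd2. The members and lists were chosen with earlier results of these data known. Same-numbered arrays of the genotypes deviated in opposite ways (r = -0.31 over probe sets, which do not replicate each other), so the numbers were not taken as pairs. The number of arrays limits the precision.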

Additional observations from a re-analysis of the deposited data

How the results depend on the processing

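With a replicate block, 0 probe sets were higher and 0 lower, against 0 and 4 without it, and crossing the numbers of the block, chosen after seeing the data, also left 0 and 0. The samples share only a number, and the deviations of replicate 1 in the 2 genotypes correlated at -0.31 over all probe sets. With a trend in eBayes, or a trend with robust, 1 probe set was higher and 7 lower, and adding 16 on the linear scale left 0 lower. Leaving out any array gave 0 lower probe sets. No member passed in either direction under any alternative run. Non-overlapping members that were higher numbered 1, in place of 2, with the dim probe sets left out, with the mean of a gene's probe sets, or with the probe set of the greatest SD, and 2 to 13 without 1 array, where 32.9% to 38.3% of all probe sets were higher without overlap. Those that were lower numbered 8 to 22 without 1 array, where 29.7% to 34.3% of all probe sets were. A probe set without overlap in 4 arrays keeps that state when 1 is left out, so with 3 arrays these counts could only stay or rise. The members that were higher stayed at 2 without AhR-deficient replicate 1. The median over the members was -0.45 to 0.11 without 1 array, turning sign without wild-type replicate 1. The cause of the other changes was not tested.

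For single members the sign turned, in tests that passed nowhere, without 1 array. Over the 4 fits that each leave out 1 array the values ran from -0.019 to 0.15 for Egln3, -0.48 to 0.36 for Slc2a1, -0.72 to 0.11 for Hk1, -0.12 to 0.53 for Hk2, -0.51 to 0.050 for Pfkl, -0.40 to 0.033 for Pfkfb3, -0.68 to 0.059 for Aldoa, -0.44 to 0.26 for Aldoc, -1.20 to 0.88 for Tpi1, -0.46 to 0.073 for Pgk1, -0.85 to 0.20 for Pgam1, -0.96 to 0.51 for Ldha, -0.33 to 0.47 for Pdk1, -1.95 to 1.11 for Bnip3, -0.42 to 0.34 for P4ha1, -0.39 to 0.17 for P4ha2 and -0.10 to 0.19 for Adm. With the mean of a gene's probe sets, Hk1 became 0.0023, Pdk1 -0.43 and P4ha1 0.0047. With probe sets ending in s_at and x_at left out, Slc2a3 became 0.12, and with the probe set of the greatest SD Slc2a3 became 0.12, Egln3 -0.014, Tpi1 0.0033 and Pdk1 -0.93. Aldoa has only probe sets ending in x_at and gave no value in that setting. Hif1a, Ddit4 and Pfkp kept their sign in each alternative run, while with the mean of a gene's probe sets Hif1a became -0.42 and Pfkp -0.25. As their genotypes did not overlap, leaving out 1 array could not turn their sign, so those fits do not test it. Egln1, Vhl, Slc2a3, Pfkm, Eno2, Pkm, Slc16a3 and Vegfa also kept their sign when any 1 array was left out. The signal of 3 members, Eno2, P4ha2 and Adm, was too dim to show small differences.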
